A study of Mus musculus with 15 samples.

Results

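Renal transcript levels of 9 genes of prostaglandin synthesis, signalling and removal and of tissue kallikrein were examined: Ptgs1, Ptgs2, Ptges, Ptgds, Ptger1, Ptger3, Hpgd, Slco2a1 and Klk1. They were picked by name, and each gene's level was the sum of the FPKM of its Ensembl transcripts (fragments per kilobase of transcript, scaled to the depth of the library, a value set per transcript length). Of the 9 genes, 8 had rows in all files, out of 13940 genes with rows there, and these 8 were among the 12372 genes tested. Ptgs2, the inducible cyclooxygenase, was not analysed here, since 0 of its 2 annotated transcripts were listed in any file. The files list only transcripts whose larger mean over 2 groups was at least 0.5 FPKM.

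RNA-seq had been done on bulk renal tissue of 15 wild-type (WT) C57BL/6 mice, male and 8 weeks old when obtained, with 5 mice in each of 3 groups. Control mice received saline for 28 days. AngII mice received angiotensin II, the pressor peptide, at 500 ng/kg/min for 28 days, and AngII+QDG mice received the same infusion together with Qingda granule (QDG), a Chinese herbal formula, at 1.145 g/kg/d. Infusion was by osmotic pump, and Control and AngII mice were given water by gavage in place of QDG. All mice carried the same genotype, and the replicates were separate mice, so that p-values measure the spread between animals.

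Prostaglandins are made from arachidonic acid by the cyclooxygenases (Ptgs1 and Ptgs2), which form prostaglandin H2, and by terminal synthases that turn it into prostaglandin E2 (Ptges) or D2 (Ptgds). In the kidney, prostaglandin E2 acts through receptors that include EP1 (Ptger1) and EP3 (Ptger3) on tubular and vascular cells and modulates salt and water transport, and it is removed by carrier uptake (Slco2a1) and oxidation by 15-hydroxyprostaglandin dehydrogenase (Hpgd). Tissue kallikrein (Klk1) is a serine protease made chiefly in the connecting tubule that frees kinins from kininogen. Kinins relax vessels, promote prostaglandin release and are degraded by peptidases such as angiotensin-converting enzyme.

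The totals implied by the FPKM steps were 68.9 to 81.3 M reads or fragments per mouse, with a median of 79.4 M in Control, 79.1 M in AngII and 70.0 M in AngII+QDG. The tissue label was checked against cell markers: Umod, of the thick ascending limb, lay between 695 and 1308 FPKM and Lrp2, of the proximal tubule, between 188 and 237 FPKM over the 15 mice. Of the adrenal markers, 1 of 5 was listed in all files, with a level of 0.692 to 1.45 FPKM, and of the macula densa markers 0 of 2 were listed in all files. Markers called higher in AngII than in Control (limma, adjusted p under 0.05) included Podxl of podocytes, Slc26a4 of intercalated cells and Pdgfrb of pericytes. In bulk tissue, more cells of a type and more RNA per cell cannot be told apart.

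Per transcript length, Klk1 stood far above the other genes, with 2077 ± 540 FPKM (SD, n = 15 mice), and ranked 19 among all genes in the mean of each group. It made up 0.300% ± 0.0297 of the summed FPKM in Control, 0.457% ± 0.0998 in AngII and 0.396% ± 0.107 in AngII+QDG (SD, n = 5 each). Ptger3 followed with 16.3 ± 4.04 FPKM and was above Ptgs1 (8.18 ± 1.13 FPKM) in 15 of 15 mice. From there the order was less sharp: Ptgs1 was above Ptges (7.30 ± 1.85 FPKM) in 11 mice and Ptges above Hpgd (6.32 ± 1.90 FPKM) in 10. Hpgd was above Ptgds (3.89 ± 2.12 FPKM) in 13 mice, Ptgds above Slco2a1 (3.29 ± 2.87 FPKM) in 9, and Slco2a1 above Ptger1 (2.35 ± 1.12 FPKM) in 8. The neighbours Ptgs1 and Ptges, Ptges and Hpgd, Ptgds and Slco2a1, and Slco2a1 and Ptger1 therefore lay within each other's spread between mice.

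**Figure D1:**
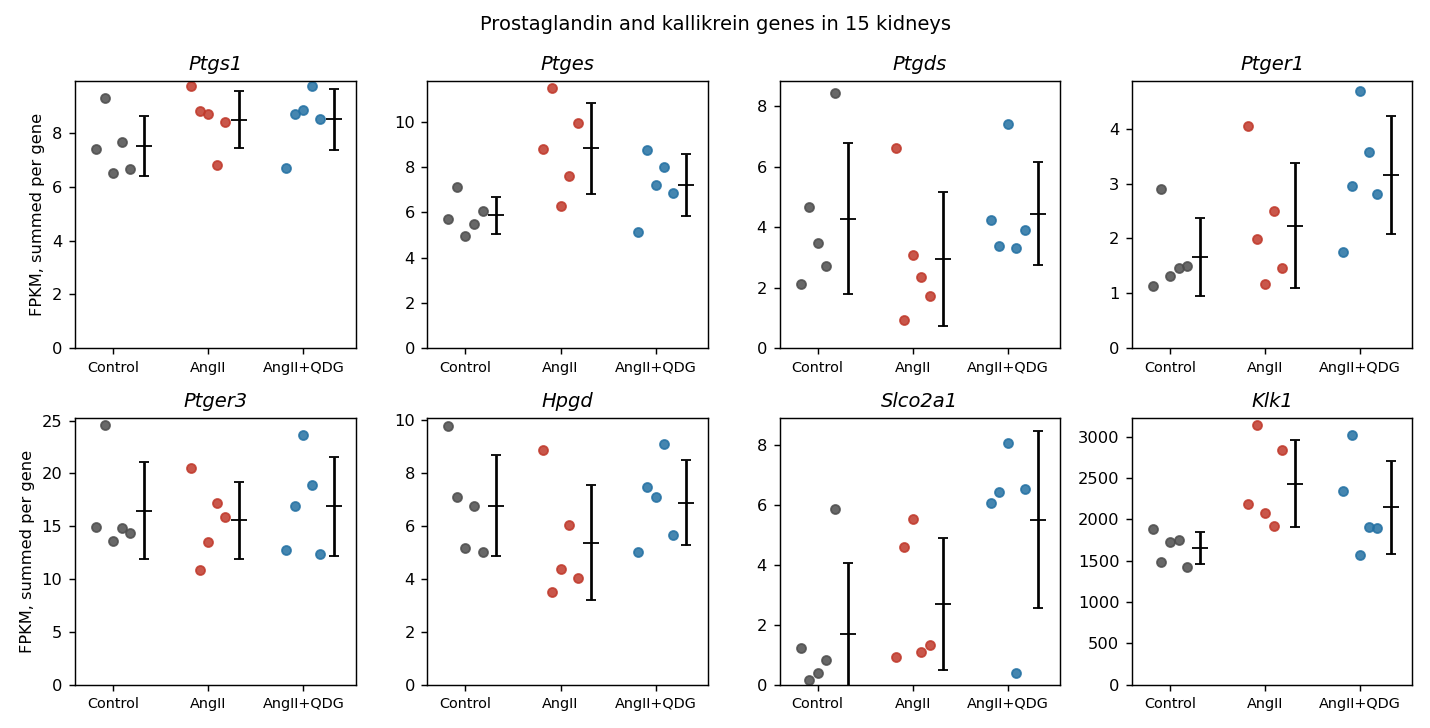
FPKM summed per gene (y axis, linear, from 0) for each of 8 genes in the Control, AngII and AngII+QDG groups, with 1 point per mouse and the mean ± SD of 5 mice beside it. Klk1 is the gene whose AngII points (1918 to 3141 FPKM) all lie above the Control points (1425 to 1886 FPKM). The lower error bar of Slco2a1 in Control is cut off at 0.

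The first comparison, AngII against Control, asks what the infusion changed. Mean levels were above Control by 1.6 times for the transporter Slco2a1, 1.5 times for the prostaglandin E2 synthase Ptges, 1.47 times for Klk1, 1.34 times for Ptger1 and 1.13 times for Ptgs1, and below Control for Ptgds, Hpgd and Ptger3. At an adjusted p under 0.05, however, limma called 0 of the 8 genes, against 735 of the 12372 genes tested, or 5.94%. At an unadjusted p under 0.05 it gave 2 of the 8, Ptges and Klk1, against 22.7% of all genes, and the exact permutation test put the same 2 genes under 0.05. At the study's threshold (fold change of at least 2 with an unadjusted p under 0.05) 0 of the 8 were counted, against 1.05% of all genes. The median log2 fold change of the 8 genes was 0.21, and that of all genes was 0.08. Among all genes 612 were called higher and 123 lower, a split that became 227 and 268 with quantile normalization and 200 and 270 with median scaling.

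Of the synthesis genes, Ptges (chromosome 2, 30889471 to 30929863, minus strand, GRCm38) encodes the inducible microsomal prostaglandin E synthase. It had 5.72, 7.11, 4.95, 5.49 and 6.06 FPKM in Control mice 1 to 5, and 8.81, 11.5, 6.30, 7.62 and 9.94 FPKM in AngII mice 1 to 5. In 4 of 5 AngII mice the level was above every Control mouse, and AngII 3 lay below Control 2, so that the groups overlapped by 1 pair. In AngII+QDG it had 5.15, 8.76, 7.23, 8.0 and 6.84 FPKM, values that reached into both other groups. The log2 fold change between AngII and Control was 0.50 (standard error 0.15, 95% interval 0.18 to 0.82), with an adjusted p of 0.0673 by limma. The two-sided exact permutation test of Ptges, with 5 mice against 5, gave p = 0.0159. Its call turned on single mice: without AngII 3 the log2 fold change was 0.60 with an adjusted p of 0.0340 by limma, and without AngII+QDG 1 it was 0.50 with 0.0491. Podxl, a podocyte marker, was also higher in AngII, at 52.3 to 70.3 FPKM against 44.2 to 52.6 FPKM in Control, with 56.1 to 73.1 FPKM in AngII+QDG, and its part in the Ptges values was not tested.

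Ptgs1 (chromosome 2, 36230426 to 36252272, plus strand), the constitutive cyclooxygenase, varied little. It had 7.40, 9.31, 6.53, 7.69 and 6.66 FPKM in Control and 9.76, 8.84, 8.70, 6.82 and 8.43 FPKM in AngII. AngII+QDG mice had 6.71, 8.70, 8.87, 9.78 and 8.51 FPKM, and all 3 groups overlapped. The log2 fold change of AngII against Control was 0.16 (95% interval −0.08 to 0.40, adjusted p = 0.434 by limma), and that of AngII+QDG against AngII had an interval of −0.24 to 0.24. Ptgds (chromosome 2, 25466709 to 25470046, minus strand), the lipocalin-type prostaglandin D synthase, spread widely. It had 2.11, 4.65, 3.49, 2.72 and 8.44 FPKM in Control, 6.62, 0.934, 3.09, 2.34 and 1.71 FPKM in AngII and 4.24, 3.36, 7.41, 3.32 and 3.89 FPKM in AngII+QDG. Single mice set the upper end in each group: Control 5, AngII 1 and AngII+QDG 3. Its log2 fold change was −0.47 (95% interval −1.23 to 0.30) for AngII against Control and 0.58 (−0.19 to 1.34) for AngII+QDG against AngII, and the adjusted p by limma was 0.474 and 0.452.

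The receptors did not pass the test in this comparison. Ptger1 (chromosome 8, 83666678 to 83672753, plus strand), which encodes EP1, had 1.14, 2.91, 1.32, 1.46 and 1.49 FPKM in Control, 4.06, 1.99, 1.18, 2.50 and 1.45 FPKM in AngII and 1.75, 2.96, 4.69, 3.57 and 2.81 FPKM in AngII+QDG. All 5 AngII+QDG mice were above every Control mouse but Control 2, whose level exceeded that of 2 of them. Of the Ptger1 sum, 63.6% on average was the coding transcript ENSMUST00000019608 and 36.4% the retained-intron transcript ENSMUST00000159935. Ptger3 (chromosome 3, 157566892 to 157645888, plus strand), which encodes EP3, had 15, 24.6, 13.6, 14.9 and 14.4 FPKM in Control, 20.5, 10.9, 13.6, 17.2 and 15.8 FPKM in AngII and 12.7, 16.9, 23.6, 18.9 and 12.4 FPKM in AngII+QDG. The log2 fold change of AngII against Control was 0.25 for Ptger1 (95% interval −0.27 to 0.77) and −0.07 for Ptger3 (−0.51 to 0.37), with adjusted p of 0.590 and 0.878 by limma. Without Control 2, which had the highest Ptger3 level of all, or without AngII 2, the Ptger3 difference changed sign, over a range of −0.17 to 0.07 in the fits that left out 1 mouse.

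Both receptors were highest in mice with high levels of collecting duct markers. The summed level of 4 of 4 collecting duct markers was 146 to 320 FPKM in Control, 124 to 335 FPKM in AngII and 205 to 386 FPKM in AngII+QDG, with none at 0, and the mouse at the top of each group (Control 2, AngII 1 and AngII+QDG 3) also had the highest Ptger1 and Ptger3 of its group. Most of that sum was Aqp2, at 235, 255 and 278 FPKM in those mice. Aqp3 was highest in Control 3, AngII 1 and AngII+QDG 3. The other markers peaked elsewhere: Scnn1g in Control 1, AngII 5 and AngII+QDG 2 (14.3, 13.1 and 16.4 FPKM), and Avpr2 in Control 1, AngII 4 and AngII+QDG 5 (2.28, 2.69 and 2.85 FPKM). In AngII 1 Avpr2 was the lowest of its group, at 1.16 FPKM. After subtracting group means, Pearson's r of Ptger1 with this sum on the log2 scale was 0.77 and Spearman's rho 0.70 over 15 mice, and r was 0.67 without the 2 mice farthest from the median. For Ptger3 r was 0.67, rho 0.59 and r without those 2 mice 0.73. Other lists moved with the receptors as closely: with urothelium markers (3 of 4 in all files, summing to 0.432 to 5.45 FPKM in Control, 0.639 to 9.13 FPKM in AngII and 0.617 to 6.37 FPKM in AngII+QDG) r was 0.82 and rho 0.83 for Ptger1 and r was 0.72 and rho 0.71 for Ptger3. With thick ascending limb markers r was 0.72 and rho 0.61 for Ptger3. These points share library and scaling, 104 such pairs of gene and marker list were computed, and the part of tissue makeup in the receptor values was not tested.

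The removal genes did not pass either. Hpgd (chromosome 8, 56294585 to 56321043, plus strand) had 9.74, 7.08, 5.17, 6.76 and 5.00 FPKM in Control, 8.85, 3.51, 4.36, 6.03 and 4.02 FPKM in AngII and 5.02, 7.46, 7.09, 9.09 and 5.63 FPKM in AngII+QDG. In AngII 3 of 5 mice lay below every Control mouse, while AngII 1 was second only to Control 1 among the mice of those groups. Limma gave a log2 fold change of −0.31 (95% interval −0.79 to 0.16, adjusted p = 0.437) for AngII against Control and 0.34 (−0.13 to 0.82, adjusted p = 0.478) for AngII+QDG against AngII. Its level moved with fibroblast and pericyte markers, whose sum over 4 of 4 markers was 14.3 to 27.9 FPKM in Control, 14.9 to 34.9 FPKM in AngII and 18 to 36.1 FPKM in AngII+QDG, with r = 0.94 and rho = 0.88 over 15 mice within groups and r = 0.89 without the 2 farthest mice. Of those 4 markers Dcn had the highest mean, with 14.4 ± 2.84 FPKM in Control and 10.5 ± 5.04 FPKM in AngII (SD, n = 5 each), lower in the mean as Hpgd was. The means of the other 3 markers were higher in AngII: Pdgfrb went from 0.634 to 2.35 FPKM (called by limma), Col1a1 from 2.11 to 3.96 FPKM and Pdgfra from 3.36 to 4.31 FPKM (neither called). The part of those cells in the Hpgd values was not tested.

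Slco2a1 (chromosome 9, 102988712 to 103096002, plus strand), the prostaglandin transporter, had 1.22, 0.164, 0.380, 0.811 and 5.84 FPKM in Control and 0.926, 4.61, 5.53, 1.09 and 1.33 FPKM in AngII. AngII+QDG mice had 6.06, 6.42, 8.06, 0.400 and 6.52 FPKM. The mice fell into low and high values inside every group: Control 5, AngII 2 and AngII 3 were high, and AngII+QDG 4 was low where the other mice of that group were high. Only 1 of its 4 annotated transcripts, ENSMUST00000035148, was listed, and its FPKM stood for 95 to 3958 reads or fragments per mouse, so that the low values were not at the counting limit. Reads given to unlisted transcripts or to assembled transcripts without gene names are not in this level, and their part in the low values was not tested. The log2 fold change was 0.59 (95% interval −0.66 to 1.85, adjusted p = 0.596 by limma) for AngII against Control, an interval wide enough to hold a change in either direction.

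Klk1 (chromosome 7, 44225360 to 44229618, plus strand, GRCm38) had 1886, 1480, 1729, 1746 and 1425 FPKM in Control mice 1 to 5 and 2180, 3141, 2079, 1918 and 2841 FPKM in AngII mice 1 to 5. Every AngII mouse was above every Control mouse, which held for 1 of the 8 genes, against 6.49% of all genes in that direction. In either direction, the groups did not overlap for 7.91% of all genes in this comparison. AngII+QDG mice had 2343, 3021, 1565, 1909 and 1897 FPKM, a range that spanned most of both other groups. The log2 fold change of AngII against Control was 0.54 (standard error 0.17, 95% interval 0.17 to 0.91), with an adjusted p of 0.0819 by limma. The two-sided exact permutation test gave p = 0.00794 for Klk1, the smallest that 5 mice against 5 allow. With quantile normalization limma called it (log2 fold change 0.65, adjusted p = 0.0375), with median scaling it did not (0.45, adjusted p = 0.165), and in the 15 fits that left out 1 mouse the adjusted p was 0.0511 to 0.172.

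Klk1 varied between mice with several marker lists, among them that of the distal convoluted and connecting tubule. Their summed level over the 4 of 5 markers listed in all files was 119 to 172 FPKM in Control, 115 to 268 FPKM in AngII and 111 to 198 FPKM in AngII+QDG, with none at 0. The mice with the highest Klk1, AngII 2, AngII+QDG 2 and AngII 5, had the highest sums, 268, 198 and 254 FPKM. Within groups r was 0.82 and rho 0.79 over 15 mice, and r was 0.85 without the 2 mice farthest from the median. AngII 1 and AngII 4, with sums of 115 and 122 FPKM, below those of most Control mice, had Klk1 levels of 2180 and 1918 FPKM, above all Control mice. Intercalated cell markers, 2 of 3 in all files, summed to 39.4 to 45.1 FPKM in Control, 47.0 to 68.1 FPKM in AngII and 51.8 to 66.7 FPKM in AngII+QDG. Their r with Klk1 was 0.85 (rho 0.72, r without the 2 farthest mice 0.71), and that of collecting duct markers was −0.76 (rho −0.69, r without the 2 farthest mice −0.78). The part of cell makeup in the Klk1 values was not tested.

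**Figure D2:**
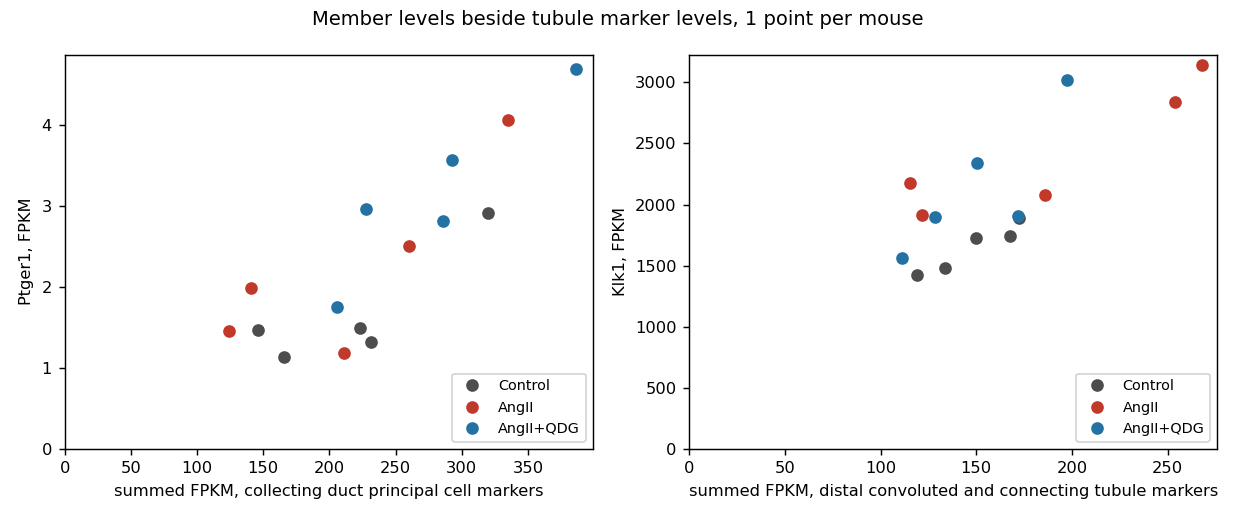
Levels of Ptger1 (left, y axis, FPKM) against the summed FPKM of collecting duct principal cell markers, and of Klk1 (right, y axis, FPKM) against the summed FPKM of distal convoluted and connecting tubule markers, with 1 point per mouse coloured by group and all axes linear from 0. Ptger1 is highest in AngII+QDG 3 (4.69 FPKM, sum of 386 FPKM), and AngII 2 and AngII 5, with Klk1 at 3141 and 2841 FPKM, have the highest sums on the right.

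The transcripts of these genes were tested one by one in a fit over 28812 transcripts. Of 14 tested transcripts of the 8 genes, 1 was called in AngII against Control, against 0.691% of all transcripts: the retained-intron transcript of Klk1, ENSMUST00000205329 (chromosome 7, 44225438 to 44229170), which rose. It had 4.44, 4.21, 3.93, 4.43 and 3.50 FPKM in Control, 10.5, 10.1, 8.01, 6.22 and 9.11 FPKM in AngII and 9.21, 9.54, 5.34, 4.94 and 6.77 FPKM in AngII+QDG. All AngII and all AngII+QDG mice were above all Control mice. How many of all transcripts had no such overlap was not computed, and this transcript was named because it was called. The log2 fold change between AngII and Control was 0.92 (standard error 0.18, adjusted p = 0.0325 by limma), at 203 to 624 reads or fragments per mouse. Without Control 1, 2, 3 or 5, or without AngII 1, 2 or 5, the adjusted p by limma was 0.0515 to 0.0841, and with quantile normalization it was 0.0513. AngII+QDG against AngII gave −0.28 (adjusted p = 0.590), and AngII+QDG against Control 0.64 (adjusted p = 0.267), and limma called 0 of the 14 in either comparison, against 0.0972% and 0.0243% of all transcripts.

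This transcript carries the first 4 exons of Klk1, with a shorter exon 1, and ends inside intron 4, where the coding transcripts splice to exon 5. Of its 753 bases, 123 are intron bases and the others lie in exons shared with the main coding transcript, ENSMUST00000075162. That transcript had 100339 to 232877 reads or fragments per mouse. The level of the retained-intron transcript therefore depends on how reads of the shared exons were split, which was not tested. The sequence at the point where it leaves the coding form is shown because it is what sets the called transcript apart, from GENCODE M21 transcripts on GRCm38 (chr7:44229008-44229170, plus strand), with the last 40 bases of exon 4 in lower case and the 123 retained intron bases in capitals.
Klk1 exon 4 into intron 4: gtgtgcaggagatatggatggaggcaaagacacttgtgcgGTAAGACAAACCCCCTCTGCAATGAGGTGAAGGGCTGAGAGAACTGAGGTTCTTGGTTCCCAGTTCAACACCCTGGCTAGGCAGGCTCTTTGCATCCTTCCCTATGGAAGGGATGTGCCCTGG

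The main coding transcript of Klk1, ENSMUST00000075162, held 97.4% of the gene's FPKM on average, and its log2 fold change of AngII against Control was 0.54 (adjusted p = 0.148 by limma). The retained-intron transcript made up 0.249% ± 0.0223 of the Klk1 sum in Control, 0.367% ± 0.0687 in AngII and 0.333% ± 0.0501 in AngII+QDG (SD, n = 5 each). The highest Control share was 0.285% and the lowest AngII share 0.321%, so the transcript's share was higher in every AngII mouse than in every Control mouse. Since the transcript was picked by its call in the same mice, this is not separate evidence of a change. Whether reads were counted by strand is not given in the sources used here.

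**Figure D3:**
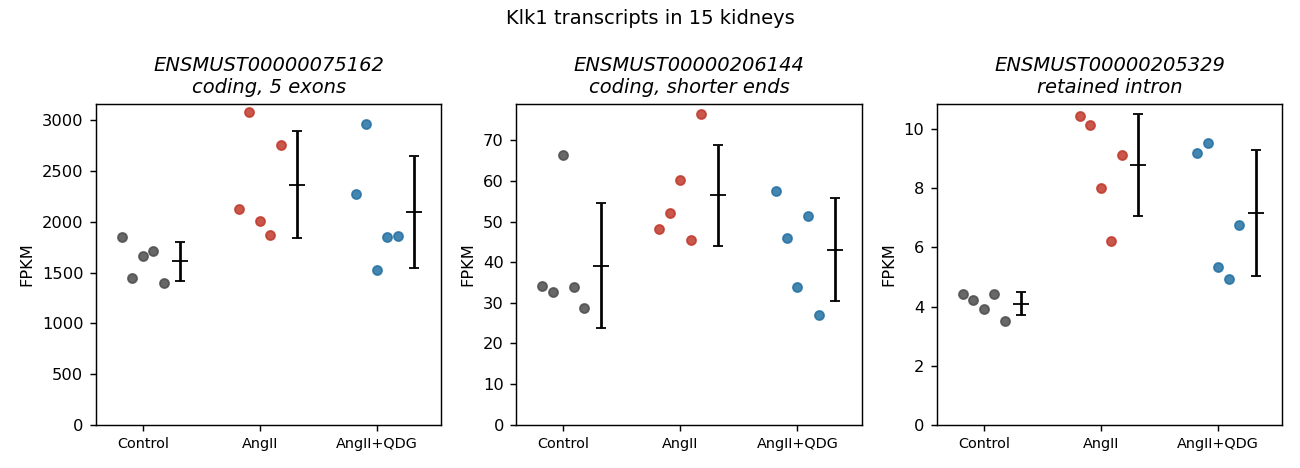
FPKM (y axis, linear, from 0) of the 3 Klk1 transcripts in the Control, AngII and AngII+QDG groups, with 1 point per mouse and the mean ± SD of 5 mice beside it. The retained-intron transcript lies at 3.50 to 4.44 FPKM in Control and at 6.22 to 10.5 FPKM in AngII.

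Klk1 has close paralogs on the same chromosome, and reads from shared stretches can be split among them, which leaves the low levels of the paralogs uncertain. The effect of such splitting on the Klk1 level was not tested. Of 13 paralogs 7 were listed in all files, and 3 (Klk1b5, Klk1b9 and Klk1b22) were tested. Klk1b5 was 96.2% identical to Klk1 over 584 bases of exons 2 to 4, with an identical run of 145 bases. Over the same 584 bases Klk1b3 was 89.4%, Klk1b9 86.0% and Klk1b16 81.2% identical. Klk1b22, Klk1b24 and Klk1b27 were compared over 297 bases without exon 3, and were 84.2%, 84.2% and 81.8% identical. Exon 4 shows how near they are: it is given here for Klk1 (chr7:44228911-44229047), Klk1b5 (chr7:44219991-44220127) and Klk1b9 (chr7:43979663-43979799), plus strand of GRCm38, with capitals in the paralogs at the 11 and 18 of 137 bases that differ from Klk1.
Klk1 exon 4: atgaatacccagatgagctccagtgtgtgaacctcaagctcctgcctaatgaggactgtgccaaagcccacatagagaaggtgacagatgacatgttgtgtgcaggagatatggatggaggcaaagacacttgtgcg
Klk1b5 exon 4: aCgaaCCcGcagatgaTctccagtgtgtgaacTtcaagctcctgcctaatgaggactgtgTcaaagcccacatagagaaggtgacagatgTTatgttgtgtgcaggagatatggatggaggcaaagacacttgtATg
Klk1b9 exon 4: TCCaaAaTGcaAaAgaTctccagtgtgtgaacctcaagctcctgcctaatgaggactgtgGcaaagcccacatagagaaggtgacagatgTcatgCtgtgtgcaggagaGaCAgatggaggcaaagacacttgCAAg
Klk1b5 had 1.91 ± 0.594 FPKM in Control and 2.65 ± 0.559 FPKM in AngII (SD, n = 5 each), and limma put its log2 fold change at 0.34 (95% interval −0.015 to 0.69, adjusted p = 0.243). Klk1b9 had 0.888 ± 0.293 and 1.62 ± 0.513 FPKM, and Klk1b22 0.765 ± 0.453 and 0.944 ± 0.276 FPKM, in the same groups. All 3 log2 fold changes were above 0, where 64.8% of all genes were higher. Limma called 0 of the 3, against 5.94% of all genes. At an unadjusted p under 0.05 it gave 1 higher, against 17.9% of all genes.

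Ptger3 was listed with 3 transcripts, among them isoforms of the EP3 receptor that share 1008 coding bases and differ in the intracellular tail. The tails are shown because the files separate them: ENSMUST00000173533 (366 residues) held 73.4% of the gene's FPKM and ENSMUST00000041175 (362 residues) 14.2%. The last 30 shared coding bases are in lower case and the coding bases that follow in each isoform, to the stop codon, in capitals (GENCODE M21, GRCm38, chromosome 3, plus strand, joined across introns).
Ptger3 ENSMUST00000041175 coding end: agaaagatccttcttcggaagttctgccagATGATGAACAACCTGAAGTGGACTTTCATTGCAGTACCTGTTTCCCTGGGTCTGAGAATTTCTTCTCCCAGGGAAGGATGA
Ptger3 ENSMUST00000173533 coding end: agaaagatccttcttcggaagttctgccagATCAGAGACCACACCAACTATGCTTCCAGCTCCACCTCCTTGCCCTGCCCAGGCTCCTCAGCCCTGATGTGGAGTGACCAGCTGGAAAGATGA
The capitals of ENSMUST00000041175 begin at base 157643875 and those of ENSMUST00000173533 end at base 157643878, so the last capitals of the latter lie on the same genomic bases as the first of the former.
The share of ENSMUST00000173533 was 73.5% ± 3.20 in Control, 73.6% ± 2.18 in AngII and 73.1% ± 5.98 in AngII+QDG (SD, n = 5 each), differences smaller than the spread between mice. Neither isoform was called in any comparison.

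The second comparison, AngII+QDG against AngII, asks what the granule changed under infusion, and it shares the AngII mice with the first. The values lay lower for Ptges, 0.815 times AngII, and Klk1, 0.883 times AngII, and higher for Slco2a1, 2.04 times AngII, but limma called 0 of the 8 genes, against 1.81% of all genes. At an unadjusted p under 0.05 limma gave 0 of the 8, against 16.4% of all genes, the exact permutation test 0, and the study's threshold 0, against 0.816%. The groups overlapped for all 8 genes, against 5.0% of all genes whose groups did not. The median log2 fold change was 0.22 for the 8 genes and −0.02 for all genes.
For Ptges the log2 fold change was −0.25 (standard error 0.15, 95% interval −0.58 to 0.07, adjusted p = 0.434 by limma). For Klk1 it was −0.19 (standard error 0.17, 95% interval −0.56 to 0.18, adjusted p = 0.634). These intervals hold 0 as well as a fall of the size of the difference between AngII and Control. For Slco2a1 it was 0.77 (95% interval −0.48 to 2.02, adjusted p = 0.557), for Ptger1 0.39 (−0.14 to 0.91, adjusted p = 0.464) and for Ptger3 0.10 (−0.34 to 0.54, adjusted p = 0.860).

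AngII+QDG against Control shares mice with both. The groups overlapped for all 8 genes, against 3.64% of all genes whose groups did not. All 8 log2 fold changes were above 0, where 62.5% of all genes were higher, and quantile normalization or median scaling put those of Ptger3 and Hpgd below 0. Their median was 0.20 against 0.06 over all genes, but limma called 0 of the 8 genes, against 0.129% of all genes. At an unadjusted p under 0.05 it gave 2 of the 8, Ptger1 and Slco2a1, against 14.4%, and the exact permutation test 1, Ptger1. At the study's threshold 1 was counted, Slco2a1, against 0.727% of all genes. For Ptger1 the mean was 3.16 ± 1.08 FPKM against 1.66 ± 0.709 FPKM (SD, n = 5 each), and the log2 fold change was 0.64 (95% interval 0.12 to 1.16, adjusted p = 0.258 by limma). The two-sided exact permutation test of Ptger1, 5 mice against 5, gave p = 0.0238. For Slco2a1 the mean was 5.49 ± 2.95 FPKM against 1.68 ± 2.36 FPKM (SD, n = 5 each), and the log2 fold change was 1.36 (95% interval 0.11 to 2.62, adjusted p = 0.307 by limma), while the exact permutation test gave p = 0.0873. Klk1 stood at 0.35 (95% interval −0.02 to 0.72, adjusted p = 0.377) and Ptges at 0.25 (−0.08 to 0.57, adjusted p = 0.478).

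**Figure D4:**
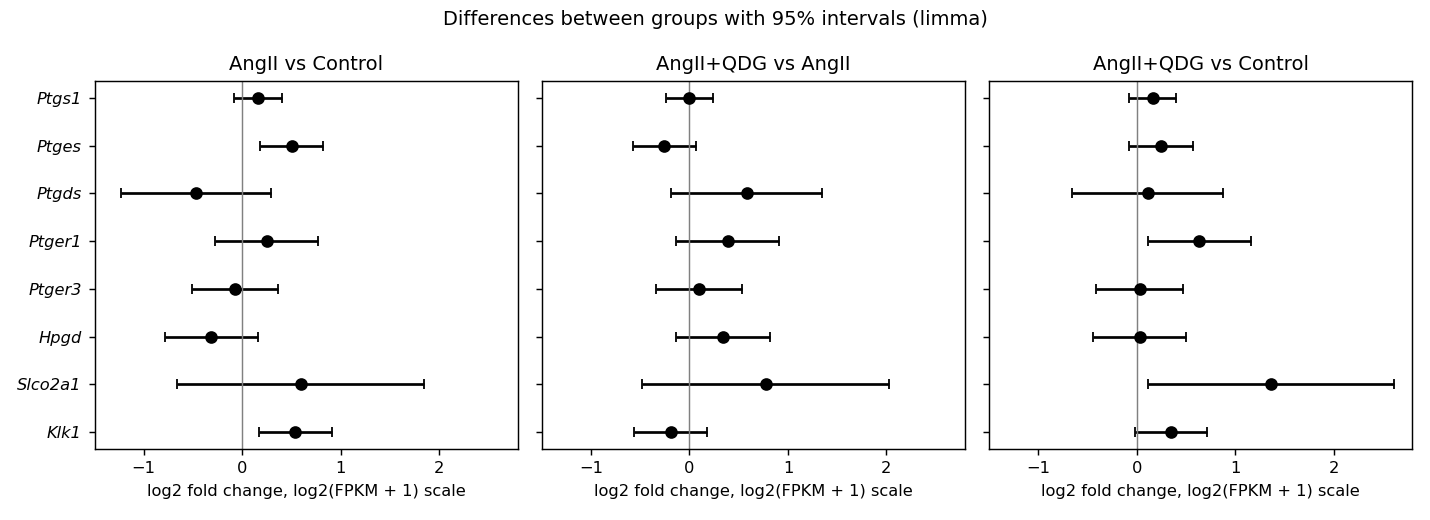
Log2 fold changes on the log2(FPKM + 1) scale (x axis) of the 8 genes in the 3 comparisons, with points for the limma estimates and bars for 95% intervals. In AngII vs Control the intervals of Ptges (0.18 to 0.82) and Klk1 (0.17 to 0.91) lie above 0, and in AngII+QDG vs AngII every interval holds 0.

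Other genes of the prostanoid and kinin pathways were read from lists of 48 genes, of which 30 were in all files and 25 were tested. In AngII against Control 2 were called higher and 2 lower, beside the 4.95% and 0.994% of all genes called in those directions. The median log2 fold change of the 25 genes was 0.04, and that of all genes 0.08. In AngII+QDG against AngII 1 was called higher and 0 lower, beside 0.525% and 1.29% of all genes. In AngII+QDG against Control 1 was called higher and 0 lower, beside 0.097% and 0.0323% of all genes.

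The genes called higher with AngII were Ptgis and Tbxa2r. Ptgis, prostacyclin synthase, had 1.70, 1.75, 1.09, 1.65 and 1.13 FPKM in Control, 2.41, 2.23, 2.19, 2.39 and 2.05 FPKM in AngII and 2.60, 2.72, 2.51, 2.61 and 2.36 FPKM in AngII+QDG. All infused mice were above all Control mice. Against Control, limma gave a log2 fold change of 0.41 for AngII (standard error 0.09, adjusted p = 0.0225) and 0.54 for AngII+QDG (adjusted p = 0.0372). The first was not called with quantile normalization (0.31, adjusted p = 0.0519), with median scaling (0.32, 0.0571), in a fit of the 2 groups alone (0.0666) or without Control 3 (0.35, 0.0543), and the second was called in 2 of 15 fits that left out 1 mouse, over an adjusted p of 0.0251 to 0.104, and in 2 of 7 other settings, over 0.0193 to 0.108.
Tbxa2r, the thromboxane receptor, had 1.22, 1.52, 1.56, 2.01 and 2.01 FPKM in Control, 3.30, 2.97, 2.12, 2.59 and 3.35 FPKM in AngII and 2.87, 2.79, 2.56, 3.31 and 2.90 FPKM in AngII+QDG, again with no overlap between infused and Control mice. Its log2 fold change in AngII against Control was 0.54 (standard error 0.11, adjusted p = 0.0175 by limma), called in all 15 fits that left out 1 mouse and not in the fit of the 2 groups alone (adjusted p = 0.0510). Both genes have low levels, and the pseudocount of 1 FPKM shrinks their fold changes.

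The genes called lower were Ace and Xpnpep2, from a list of kinin breakdown of which 4 genes were tested and 0 called higher. Over all genes 0.994% were called lower, 123 genes, and 270 with median scaling, and nothing particular to the list is read from its count. The carboxypeptidase gene Cpn1 had a higher mean in AngII, 44.1 ± 7.47 FPKM against 35.4 ± 4.65 FPKM (SD, n = 5 each), and was not called (log2 fold change 0.30, limma unadjusted p of 0.0285, adjusted p of 0.164). Mme, neprilysin, was at −0.13 (adjusted p = 0.609). Ace, angiotensin-converting enzyme, which also makes angiotensin II, had 46.2, 50.9, 53.3, 64.4 and 59.4 FPKM in Control and 45.3, 25.3, 34.9, 41.3 and 30.7 FPKM in AngII, with no overlap, and 44.9, 33.1, 40.4, 32.5 and 53.5 FPKM in AngII+QDG. Ace fell by 0.63 on the log2 scale (standard error 0.16, limma adjusted p of 0.0382), and without Control 1, 3, 4 or 5, or without AngII 2, 3 or 5, the adjusted p was 0.0526 to 0.0891. It was 0.0503 with coding transcripts only and 0.0549 in a fit of the 2 groups alone. Xpnpep2, the membrane-bound aminopeptidase P, had 3.57, 3.88, 3.43, 3.66 and 4.31 FPKM in Control, 1.95, 2.45, 2.05, 2.25 and 2.83 FPKM in AngII and 4.34, 4.17, 4.04, 4.86 and 2.95 FPKM in AngII+QDG. Every AngII mouse was below every mouse of the other groups. It fell by 0.53 on the log2 scale in AngII against Control (standard error 0.11, adjusted p = 0.0154 by limma) and rose by 0.61 in AngII+QDG against AngII (adjusted p = 0.0181), comparisons that share the AngII mice, and both were called in all 15 fits that left out 1 mouse. In fits of the 2 compared groups alone the second had an adjusted p of 0.0604. In AngII+QDG against Control it was 0.08 (95% interval −0.15 to 0.31).

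The most abundant tested gene of each list was Pla2g12a, a phospholipase (15.6 FPKM over 15 mice), Akr1b3, a reductase with prostaglandin F synthase activity (66.0 FPKM), Ptgfr, the prostaglandin F receptor (5.45 FPKM), Cbr1, a carbonyl reductase (49.7 FPKM), Klk1b5 (2.34 FPKM), Kng2, a kininogen (60.5 FPKM) and Ace (43.7 FPKM). Of these Ace alone was called in AngII against Control and none in AngII+QDG against AngII. The rank of Akr1b3 rests on the mean, since its levels ran from 21.5 FPKM in AngII to 184 FPKM in AngII+QDG. Its medians in Control, AngII and AngII+QDG were 28.7, 25.9 and 54.5 FPKM, and those of Cbr1, also in its list, 39.7, 49.1 and 54.4 FPKM. Kng2, the substrate of Klk1, had 52.1, 46.6, 59.6, 59.4 and 56.5 FPKM in AngII and 62.7, 81.8, 73.9, 64.1 and 70.0 FPKM in AngII+QDG. The groups did not overlap, yet the log2 fold change of 0.36 (95% interval 0.17 to 0.55) had an adjusted p of 0.0588 by limma.

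**Figure D5:**
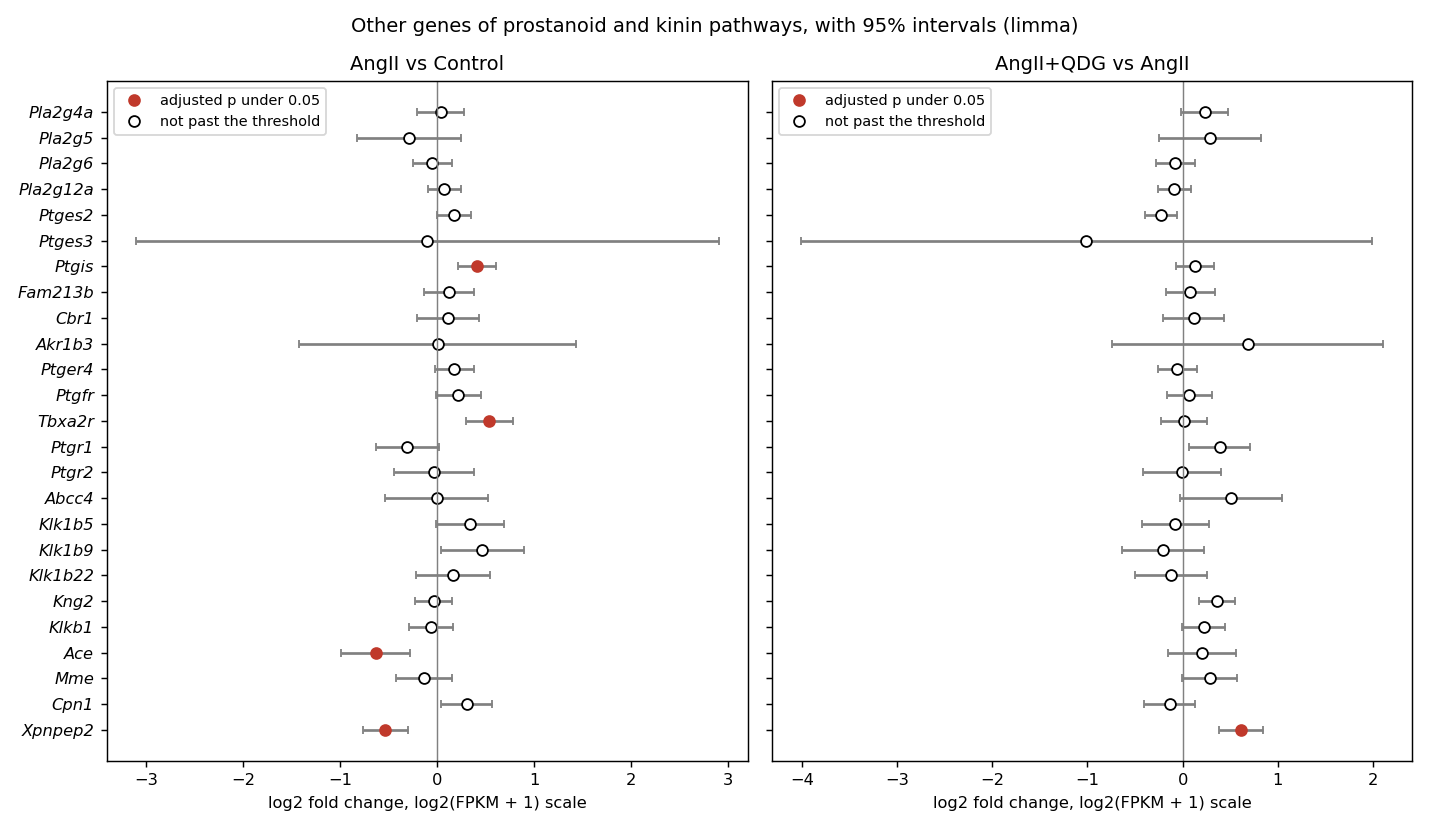
Log2 fold changes on the log2(FPKM + 1) scale (x axis) of 25 further pathway genes in AngII vs Control and AngII+QDG vs AngII, with points for limma estimates, filled where the adjusted p was under 0.05, and bars for 95% intervals. Ptgis and Tbxa2r lie above 0 and Ace and Xpnpep2 below it on the left, and Xpnpep2 alone is filled on the right. The scales of the x axes differ.

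Genes whose levels moved most like each of the 8 genes between mice of a group were sought among all genes tested, by Pearson's r of log2 values after subtracting group means over 15 mice. For Klk1 they were Tbc1d1 (r = 0.91), Scn4b (r = 0.90) and Hhatl (r = 0.89). For Ptger1 they were Parm1 (r = 0.98), Mal2 (r = 0.92) and Twsg1 (r = 0.92), and for Ptger3 Gm36958 (r = 0.94), Telo2 (r = 0.92) and Rab25 (r = 0.91). Hpgd was nearest to Dcn (r = 0.90), a fibroblast proteoglycan, then Krt15 and Ndc1 (r = 0.88 each). Ptgs1 was nearest to 1190002N15Rik (r = 0.90), Rhobtb3 (r = 0.90) and Cdc42ep1 (r = 0.89), and Ptges to Gsta4 (r = 0.87), Sowahc (r = 0.85) and Ttl (r = 0.84). Ptgds was nearest to Pxk (r = 0.89), Cyp2d9 (r = 0.87) and Sgsm3 (r = 0.85), and genes near Slco2a1 included Uck1 (r = 0.85) and Acot4 (r = 0.84). Since each r is the highest over all genes tested and the points share libraries and scaling, they describe these 15 mice only. Among the 8 genes themselves the closest pair was Ptger1 and Ptger3 by Pearson's r (r = 0.80, rho = 0.69) and Ptger3 and Hpgd by Spearman's rho (r = 0.64, rho = 0.73), and the most opposed Ptgds and Klk1 (r = −0.66, rho = −0.71).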

How the data were processed

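RNA-seq of renal tissue from 15 mice, 5 per group by the labels, was used. The authors deposited 1 FPKM value per transcript and mouse; the files name no unit. It was read from the values: FPKM times transcript length in GENCODE M21 came out, for each mouse, at whole multiples of 1 constant, within 0.05 reads, in 98.5% to 98.7% of values under 200 reads. The constant was the one with the highest whole share in a scan of candidate totals, so the share is a maximum over that scan. Implied totals, 68.9 to 81.3 M, limit precision by counting error only. The submitters' processing notes name mm10 and limma; aligner, assembler and annotation are not given in the sources used here. Of 31301 Ensembl transcripts, 31254 matched GENCODE M21 (GRCm38), the source of symbols, coordinates and sequences, and 12432 assembled transcripts without gene names were left out. FPKM were summed per gene over Ensembl transcripts present in all 15 files. Genes that reached 1 FPKM in 5 or more mice were tested by limma 3.58.1 (R 4.3.3, trend) on log2(FPKM + 1), with a mean per group, 12 residual degrees of freedom and Benjamini-Hochberg adjustment over all 12372 genes, and single transcripts likewise over 28812. Two-sided exact permutation tests were run per gene. Fold changes are on the log2(FPKM + 1) scale, which understates changes of low genes. The genes and lists were chosen with earlier results of these data known. Named were all listed genes, pathway genes called in any comparison or highest in their list, and the 3 genes most like each gene; a few items under these rules are not reported here. Alternatives were another pseudocount, no filter, quantile normalization, median scaling, all listed transcripts, coding transcripts only, fits of the 2 compared groups and leaving out each mouse.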

Additional observations from a re-analysis of the deposited data

Results flagged for a closer look

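In 24 sets of 5 mice (8 genes in 3 groups), the highest or lowest mouse was set against the others by the gap to its nearest neighbour over the range (Dixon's critical value 0.710 for 5 samples). Independent, normally distributed values exceed it in about 1 in 20 sets. The FPKM were not log-transformed here and the sets share mice, so that rate does not measure how unusual the number of such sets is. In 5 sets a mouse lay that far out. Ptger1 was 2.91 FPKM in Control 2, where the next Control mouse had 1.49 FPKM, and Ptger3 was 24.6 FPKM in the same mouse, where the next had 15 FPKM. That mouse also had the highest collecting duct marker sum of its group, 320 FPKM. Ptgds was 7.41 FPKM in AngII+QDG 3, against 4.24 FPKM in the next, and this mouse had the highest collecting duct marker sum of all, 386 FPKM. Slco2a1 was 5.84 FPKM in Control 5, against 1.22 FPKM in the next mouse. It was 0.400 FPKM in AngII+QDG 4, against 6.06 FPKM in the next lowest, and that mouse also had the highest leukocyte marker sum of all, 62.3 FPKM, where the others of its group had 14.9 to 22.9 FPKM. Of that sum 58.0 FPKM was Lyz2, of myeloid cells. Adgre1, of macrophages, was 3.0 FPKM in that mouse and 0.792 to 1.42 FPKM in the others of its group, and Ptprc, carried by all leukocytes, was 1.34 FPKM in that mouse and 1.20 to 1.5 FPKM over its group. The part of those markers in these values was not tested.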

How the results depend on the processing

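Under 7 alternatives that kept every mouse, 162 of the member differences kept direction and side of the threshold, 1 became called and 5 changed sign; in the fits that left out 1 mouse 338 kept both, 2 became called and 20 changed sign. No paired analysis was possible because the labels give mice individual identifiers and no replicate number shared by groups. The numbers 1 to 5 used here only name mice in accession order. The settings for the log2 fold changes of single pathway genes and of the Klk1 retained-intron transcript were added after seeing the data. The causes of these changes were not tested.

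In AngII vs Control, genes called higher numbered 612, and 227 with quantile normalization, 200 with median scaling, 325 with coding transcripts only, 385 in the fit of 2 groups and 271 to 687 without 1 mouse. Genes called lower numbered 123, and 268, 270 and 71 with quantile normalization, median scaling and the fit of 2 groups, and 67 to 113 without 1 mouse. Members called higher were 1 with quantile normalization (Klk1) and 0 to 1 without 1 mouse. Pathway genes called higher were 1 with either scaling, 0 in the fit of 2 groups and 1 to 2 without 1 mouse, and those called lower 1 with coding transcripts only or the fit of 2 groups and 1 to 2 without 1 mouse. Member transcripts called were 0 with quantile normalization and 0 to 1 without 1 mouse. Without 1 mouse the Ptger3 log2 fold change ranged from −0.17 to 0.074.

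In AngII+QDG vs AngII, 65 genes were called higher, and 41 with coding transcripts only, 9 in the fit of 2 groups and 7 to 62 without 1 mouse. Those called lower numbered 159, and 97 with quantile normalization, 49 in the fit of 2 groups and 46 to 199 without 1 mouse. Pathway genes called higher were 2 with quantile normalization, 0 in the fit of 2 groups and 1 to 2 without 1 mouse. Without 1 mouse the log2 fold change ranged from −0.069 to 0.074 for Ptgs1 (−6.4e-05 with a pseudocount of 0.1), −0.025 to 0.20 for Ptger3 and −0.060 to 0.060 for Tbxa2r.

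In AngII+QDG vs Control, 12 genes were called higher, and 61 with all listed transcripts, 5 with coding ones, 2 in the fit of 2 groups and 0 to 91 without 1 mouse. Those called lower numbered 4, and 7 with quantile normalization, 12 with median scaling, 19 with all listed transcripts, 1 with coding ones, 2 in the fit of 2 groups and 0 to 19 without 1 mouse. Pathway genes called higher were 2 with all listed transcripts, 0 with a pseudocount of 0.1, either scaling, coding transcripts or the fit of 2 groups, and 0 to 1 without 1 mouse. Quantile normalization and median scaling gave −0.031 and −0.050 for Ptger3 and −0.051 and −0.049 for Hpgd, and quantile normalization gave −0.012 for Xpnpep2. Without 1 mouse the log2 fold change ranged from −0.058 to 0.35 for Ptgds, −0.096 to 0.17 for Ptger3 and −0.067 to 0.15 for Hpgd.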
